A study of Homo sapiens with 3 samples.

Results

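The short arm of chromosome 19 (19p) carried 533 of the 23641 peaks of 8-oxo-7,8-dihydro-2'-deoxyguanosine (8-oxodG) mapped in resting MCF10A cells. Its members were all peaks on chromosome 19 whose summit lay before the end of the short arm on genome build hg18, at 28.5 Mb. The peaks came from immunoprecipitation of sonicated genomic DNA with an antibody against 8-oxodG, followed by sequencing. MCF10A is an established line of human breast epithelium that does not form tumours, and per the labels all cells were arrested in G0, the state outside the division cycle. The labels gave 3 samples in 1 group, 2 from a first experiment and 1 from a second, grown in DMEM-F12 medium with horse serum and given no treatment. A single joint list was deposited for them, so replicate error cannot be given for any value, and no input or control antibody was analysed here.

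8-oxodG forms when reactive oxygen attacks guanine, the most easily oxidised of the DNA bases. The glycosylase OGG1 removes it in base excision repair, and where it is left in place it can pair with adenine during replication and cause G-to-T changes. The short arm of chromosome 19 is one of the most gene-dense and GC-rich arms of the human genome. From the chromosome end inwards, 19p13.3 holds the tumour suppressor kinase gene STK11, 19p13.13 the calcium-binding chaperone gene CALR, 19p13.12 the receptor gene NOTCH3 and 19p13.11 the transcription factor gene JUND. The band 19p12, next to the centromere, is packed with genes for KRAB zinc finger proteins such as ZNF91, a large family of repressors that acts on transposable elements, and these genes are interspersed with satellite repeats. A further zinc finger cluster lies in 19p13.2. These genes are named for orientation only, since no gene annotation of hg18 was used and no peak was assigned to a gene.

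Of the arm's length, 24.4 Mb was sequenced on hg18. The sequence ended 4.08 Mb before the arm did, so the last part of 19p12 and all of 19p11 could hold no peak. The last member had its summit at 24154394, with a pileup of 143 fragments. The first peak past the arm's end had its summit at 32894141 in 19q12, with a pileup of 19, so no peak lay near the limit that defined the members. Intervals on densities are exact Poisson intervals and those on shares exact binomial (Clopper-Pearson) intervals, at 95%. They cover counting error only. Peak counts in neighbouring windows varied more than counting error allows, so these intervals are narrower than the variation along the arm. PCR copies cannot be told from separate molecules in this list.

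Peaks were dense on 19p. The arm had 21.8 peaks per sequenced Mb (95% interval 20.03 to 23.8), against 8.31 (8.20 to 8.42) on the other autosomal arms together, a ratio of 2.63 (2.41 to 2.87). Among 40 autosomal arms with sequence it ranked second. The long arm of the same chromosome, 19q, ranked first with 28.52 (26.7 to 30.4), and the ratio of 19p to 19q was 0.766 (0.687 to 0.854). Ranked 3rd, 21p had 18.4 from only 9 peaks, with an interval of 8.39 to 34.9 that reached past the value of 19p. Next came 20q at 16.4 and 16p at 14.6, and their intervals (15.0 to 17.8 and 13.32 to 15.9) ended below that of 19p. Set against 2 other gene-rich arms, 19p had 1.55 times (1.37 to 1.76) the density of 22q and 2.01 times (1.73 to 2.36) that of 17p. Peaks covered 1.47% of the sequence of 19p and 0.447% of that of the other arms.

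The high density on 19p was seen at a background close to that of the other arms together, known only at the summits of peaks. Pileup is the number of fragments stacked at a peak's summit, fold enrichment compares it with the fragments expected there, and that expected number is called the background. Its median was 1.01 fragments on 19p and 1.01 on the other arms. The arm ranked 11th by this measure, and the middle value of the other arms' medians was 0.944. With arms at 1.4 times the median arm's background or more left out, the ratio of 19p to the other arms was 1.07. On the denser arm 19q the median was 1.57, and on 20q and 16p it was 1.42 and 1.37. Across 39 arms (21p left out for its 9 peaks), arms with more peaks per Mb also had a higher median background, with a Spearman's rho of 0.801. Bands were compared in the same way, taking the 32 with at least 20 peaks per Mb and 1 Mb or more of sequence. The 4 such bands on 19p had median backgrounds of 0.944 (19p13.13), 0.944 (19p13.12), 0.991 (19p13.2) and 1.04 (19p13.3). The 28 others had a median of 1.41, with a range of 0.896 to 1.97. The bands of 19p lay in the lower part of that range. Among the 28 were bands of 16p, 16q, 19q and 20q, all arms at 1.4 times the median arm's background or more. They were not left out of this comparison.

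**Figure D1:**
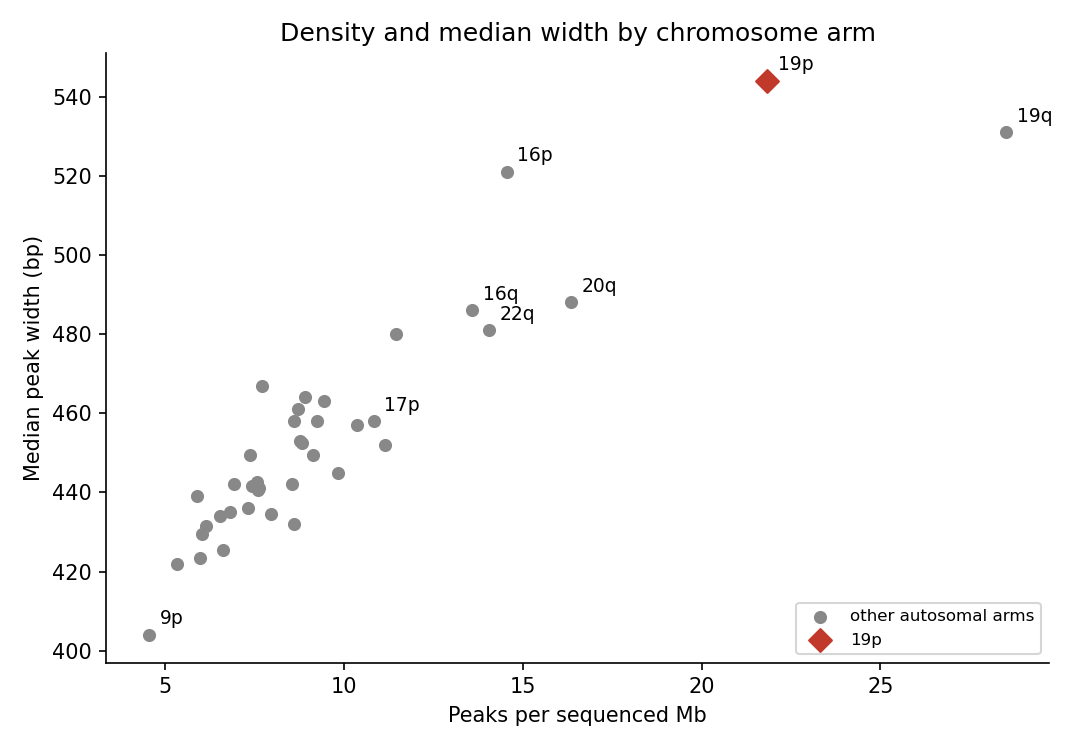
Peaks per sequenced Mb (x axis) and median peak width in bp (y axis) of 39 autosomal chromosome arms, each a point, with 19p as a diamond; 21p, with 9 peaks, is left out. Arms with more peaks had wider peaks, and 19p stood at 21.8 peaks per Mb and 544 bp, second only to 19q in density and above it in width.

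Density was high in all bands of 19p13 and low in 19p12. From the chromosome end inwards, 19p13.3 had 204 peaks or 29.6 per Mb (25.7 to 34.0). In 19p13.2 there were 124 or 21.8 per Mb (18.1 to 26.0). The small band 19p13.13 had 37 or 30.8 per Mb (21.7 to 42.5), 19p13.12 had 70 or 30.4 (23.7 to 38.5), and 19p13.11 had 71 or 19.2 (15.0 to 24.2). The zinc-finger-rich 19p12 had 27 peaks in 4.62 Mb of sequence, or 5.84 per Mb (3.85 to 8.50). Joined, the sub-bands of 19p13 had 25.6 per Mb, which was 4.38 times (2.98 to 6.71) the density of 19p12.

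Within 19p13 the profile was not an even slope. Density was 1.36 times (1.08 to 1.71) as high in 19p13.3 as in 19p13.2, and 1.59 times (1.12 to 2.24) as high in 19p13.12 as in 19p13.11. The neighbours 19p13.13 and 19p13.12 did not differ beyond counting error (ratio 1.01, 0.661 to 1.53). Neither did 19p13.2 and 19p13.13 (0.707, 0.486 to 1.05). Among 724 autosomal bands with 1 Mb or more of sequence, 19p13.13, 19p13.12 and 19p13.3 ranked 7th, 8th and 10th by density. The bands 19p13.2 and 19p13.11 ranked 27th and 38th, and 19p12 ranked 461st.

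The low density of 19p12 was within counting error of the average of the other autosomal arms (ratio 0.703, 0.463 to 1.02). The band stains as variable heterochromatin, a class with 3 other autosomal members of that size. Of these, 9q12 had 4.92 peaks per Mb (3.003 to 7.59) and 3q11.2 had 5.82 (3.87 to 8.41), both close to 19p12. Its counterpart on the far side of the centromere, 19q12, had 98 peaks or 20.96 per Mb (17.01 to 25.5). Density in 19p12 was 0.279 times (0.175 to 0.430) that of 19q12.

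**Figure D2:**
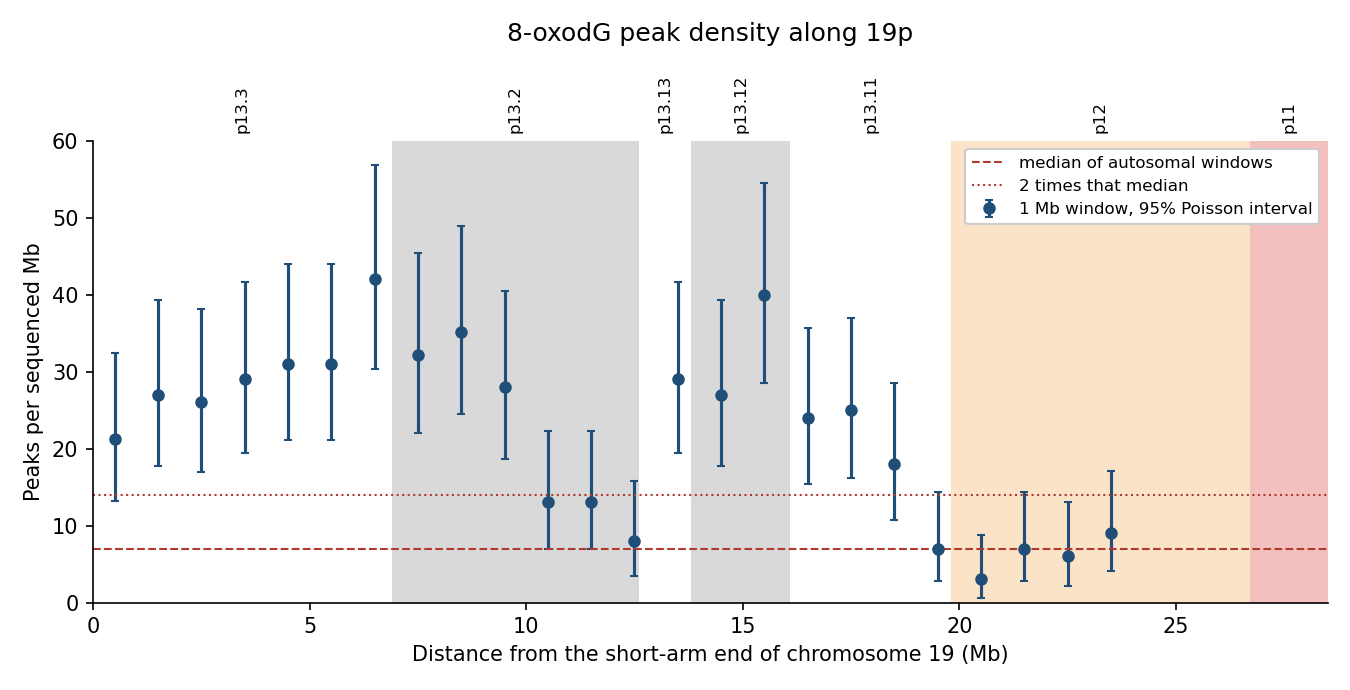
Peaks per sequenced Mb in 24 windows of 1 Mb (y axis, points with 95% Poisson intervals) by distance from the short-arm end of chromosome 19 in Mb (x axis); shading marks the bands, the dashed line the median of autosomal windows (7 per Mb) and the dotted line 2 times that median. Windows of 19p13 lie mostly above the dotted line, with a trough between 10 and 13 Mb, and all windows past 19 Mb lie below it.

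Along the arm in windows of 1 Mb, density averaged 22.1 ± 11.4 per Mb (SD over 24 windows), against 8.31 ± 6.21 over 2668 windows of the other autosomal arms. At or above 2 times the autosomal median of 7 per Mb were 16 of the 24 windows on 19p, or 66.7%, where 14.5% of all 2692 autosomal windows reached that mark. All 16 lay among the 20 windows of 19p13. On 19q it was 29 of 32 windows. The ratio of variance to mean of the window counts, which is 1 for even random scatter, was 5.85 on 19p and 3.64 over the windows of 19p13 alone. Over 39 arms with at least 10 windows, 19p ranked 3rd by this ratio, and the median of the other arms was 2.70.

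The windows of most peaks lay at 6 to 7 Mb, around the border of 19p13.3 and 19p13.2, with 42 peaks, at 15 to 16 Mb in 19p13.12 with 40, and at 8 to 9 Mb in 19p13.2 with 35. They ranked 11th, 12th and 20th among autosomal windows. From the chromosome end, counts went from 21 in the first window through 27, 26, 29, 31 and 31 to the 42 of the seventh. The first 292 kb of sequence, to position 302519, held no peak. The fewest peaks were at 20 to 21 Mb in 19p12, with 3, followed by 6 at 22 to 23 Mb in the same band. The window at 19 to 20 Mb, mostly in 19p13.11, had 7, as did that at 21 to 22 Mb.

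A trough divided the dense part of the arm. The windows at 10 to 11, 11 to 12 and 12 to 13 Mb had 13, 13 and 8 peaks, or 11.3 per Mb (7.85 to 15.8) over the 3 together. The 3 Mb on the distal side had 31.8 per Mb (25.7 to 38.8) and the 3 Mb on the proximal side 32.0 (25.9 to 39.1). Density in the trough was 0.355 times (0.239 to 0.514) that of both flanks. It did not differ beyond counting error from the other autosomal arms (ratio 1.36, 0.945 to 1.91). The median background was 0.944 in the trough, 1.01 on the distal flank and 0.944 on the proximal flank. The trough was singled out after its values were seen.

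The longest stretch of sequence on 19p without a peak lay in this trough. It spanned 0.666 Mb (chr19:11946210-12612468, hg18), nearly all in 19p13.2, and ended just inside 19p13.13. Next were 2 stretches on either side of a single peak at the distal end of 19p12, of 0.612 Mb (chr19:20221676-20833857) and 0.505 Mb (chr19:19716219-20221319), the second of which began in 19p13.11. Densities took no account of mappability.

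Peaks on 19p were wider at the median than those of the other autosomal arms together. Their median width was 544 bp (quartiles 404 and 765 bp), against 451 bp (362 and 580 bp) on the other autosomal arms, a ratio of 1.21. The exact interval of the median of 19p put this ratio at 1.16 to 1.27. This interval, and those of the pileup and fold ratios below, took the other arms' median as fixed and peaks as independent. Peaks of 1 list are not replicates, and many lay close together, so these intervals do not give replicate error. The arm ranked second of 40, behind 21p with its 9 peaks, and 19q followed at 531 bp. Across the 39 arms without 21p, wider medians went with higher density (rho = 0.886; 0.877 without 19p), and over 723 bands with a peak the rho was 0.511. The lowest arm in both was 9p, with 404 bp and 4.56 peaks per Mb.

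The excess was in the upper classes. Of the peaks on 19p, 14.8% (79 of 533, interval 11.9 to 18.1%) were at least 1000 bp wide, against 5.62% of autosomal peaks. The share was 5.40% (5.11 to 5.71%) on the other arms, 8.94% (7.15 to 11.001%) on 19q, 7.53% (4.52 to 11.6%) on 17p and 7.35% (5.20 to 10.03%) on 22q. None of these intervals reached that of 19p. The intervals of 16p (9.61%, 7.19 to 12.5%), 4p (9.43%, 6.85 to 12.6%) and 10p (9.40%, 6.86 to 12.5%) did. So did those of 18p (6.59%, 2.46 to 13.8%) and of 21p with its 9 peaks (55.6%, 21.2 to 86.3%). At 2000 bp or more, 19p had 12 peaks or 2.25% (1.17 to 3.90%), against 0.748% of autosomal peaks. Widths from 500 to under 1000 bp made up 42.2% on 19p and 32.5% on the other arms, and widths from 300 to under 500 bp 33.8% and 51.6%. Peaks under 300 bp were about as common on 19p (9.19%, 6.88 to 11.97%) as elsewhere (10.4%).

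**Figure D3:**
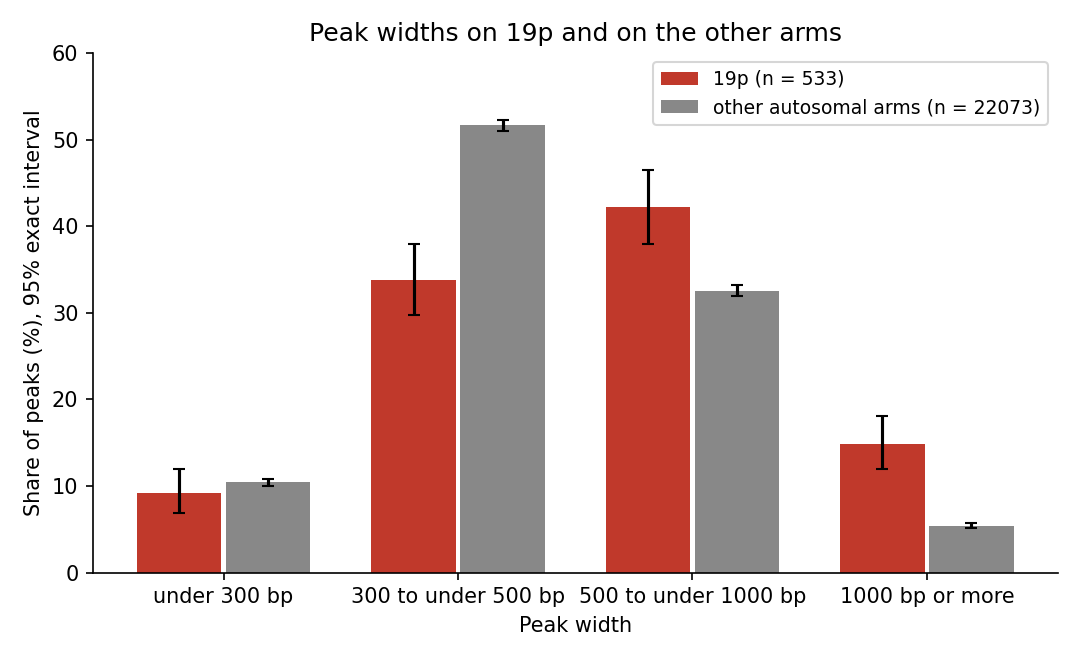
Share of peaks in 4 classes of width (y axis, %, with 95% exact intervals) on 19p (533 peaks) and on the other autosomal arms (22073 peaks). At 1000 bp or more the share was 14.8% on 19p and 5.40% elsewhere, and from 300 to under 500 bp it was 33.8% and 51.6%.

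Of the 79 wide peaks, 39 lay in 19p13.3, 12 each in 19p13.2 and 19p13.11, 9 in 19p13.12, 5 in 19p12 and 2 in 19p13.13. Within 19p13.3 they made up 19.1% (13.96 to 25.2%) of the band's peaks, and the median width of 622.5 bp there was the sixth highest of the autosomal bands ranked. In the other bands the median was 485 bp (19p13.2), 436 bp (19p13.13), 539 bp (19p13.12), 559 bp (19p13.11) and 379 bp (19p12). The last of these ranked 665th. Among the 32 dense bands, the 28 outside 19p had median widths of 398 to 751 bp, the highest in 11p15.5, with a middle value of 561.5 bp. Of all 32, 19p13.3 was 4th. The bands 19p13.12, 19p13.2 and 19p13.13 lay below that middle value, at ranks 17, 28 and 31. By the share of peaks of at least 1000 bp, the 4 bands of 19p ranked 4th, 14th, 22nd and 28th in the same order.

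Wide peaks on 19p had a higher median fold enrichment than those of the other arms together, with overlapping quartiles. Their median fold enrichment was 21.4 (quartiles 14.3 and 30.005) at a median background of 1.73. The 1192 wide peaks of the other arms had a median fold of 15.3 (11.04 and 23.8) at a background of 2.61. With pericentromeric, variable and stalk bands left out on both sides, the median fold was 20.1 in 19p13 (74 peaks) and 15.4 on the other arms, at backgrounds of 1.73 and 2.52. The pileup of wide peaks was 51 on 19p and 59 on the other arms. On 19q the fold was 19.7, close to that of 19p, and the background 2.23. Among peaks of 500 to under 1000 bp the order was the other way, with a median fold of 16.6 on 19p and 17.3 on the other arms.

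Peaks on 19p were only slightly taller than elsewhere. Summit pileups ranged from 10 to 153 fragments on the arm, and their median was 28 (quartiles 18 and 46). On the other arms the median was 25 (16 and 42), a ratio of 1.12 with an interval of 1.04 to 1.20 from the peaks of 19p. The arm shared rank 10 of 40 with 22q. The share of peaks at or above the autosomal upper quartile of 42 fragments was 30.4% (26.5 to 34.5%), against 25.4% of all autosomal peaks, and 37.5% (34.4 to 40.8%) on 19q. Fold enrichment, the authors' own value for each peak, had a median of 13.18 on 19p and 11.7 elsewhere, a ratio of 1.13 (1.07 to 1.22), which ranked 4th. At or above the autosomal upper quartile of fold, 17.9, were 32.1% (28.1 to 36.2%) of the peaks of 19p and 25.0% of autosomal peaks.

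Because pileup rises with the background at the summit (rho = 0.541 over 533 peaks of 19p), heights and widths were also set side by side within 4 equal classes of the autosomal background. The peaks of 19p were spread evenly over these classes, from 24.4% to 25.9% in each. Their median pileup was 17.5, 22, 31 and 45 fragments from the lowest to the highest class, against 16, 20, 26 and 43 on the other arms. The corresponding median widths were 410, 444, 605 and 783 bp, against 384, 414, 458 and 619 bp. The ratio of widths was thus 1.07 in both lower classes and 1.32 and 1.26 in the upper ones, and the ratio of pileups lay between 1.05 and 1.19.

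Median pileup and fold enrichment spanned a narrower range over the bands than density did. Median pileup was 32 in 19p13.3, 26 in 19p13.2, 24 in 19p13.13, 29.5 in 19p13.12, 28 in 19p13.11 and 22 in 19p12. Median fold was 14.7, 12.9, 11.5, 14.01, 12.8 and 9.78 in the same order. The quartiles of fold overlapped between all bands, for example 10.1 and 23.1 in 19p13.3 and 7.90 and 15.7 in 19p12. The median background was highest in 19p13.11, at 1.26, and 0.944 in 19p12. Over the 24 windows, density had a rho of 0.379 with median width, 0.301 with median fold and 0.351 with median background, which are descriptions over windows of 1 list.

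**Figure D4:**
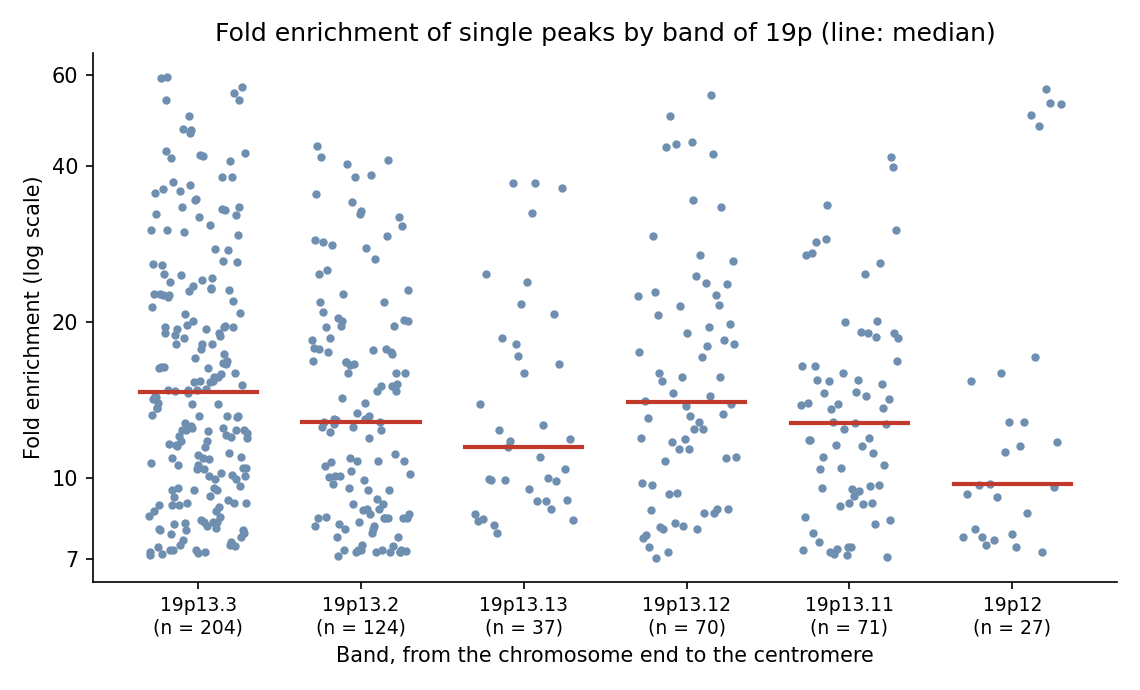
Fold enrichment of every peak of 19p (y axis, log scale) by band from the chromosome end to the centromere (x axis), with the median of each band as a line; points within a band are in order of position. Medians lie between 9.78 and 14.7, and in 19p12 a set of 5 peaks stands at 47.8 to 56.4, apart from the other 22 at 17.1 or less.

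The few peaks of 19p12 fell into a low and a very high set. In the low set, 22 peaks had pileups of 11 to 35 fragments (median 17.5), widths of 210 to 871 bp (median 369.5) and folds of 7.23 to 17.1. The high set had 5 peaks, with pileups of 125 to 153, widths of 1131 to 4892 bp and folds of 47.8 to 56.4, and no peak of the band lay between the sets, which were separated after the values were seen. These 5 made up 64.4% of the bases covered by peaks in 19p12. All lay within 0.856 Mb near the end of the sequence, while the low set was spread over 3.80 Mb.

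The 5 are given in order from the chromosome end, with examples of the low set, all picked from 19p12 after its values were seen. The first (chr19:23297076-23299098, hg18) stacked 125 fragments over a background of 1.51, a fold of 50.2. The second (chr19:23439834-23444725) was the widest peak of 19p, at 4892 bp, stacking 152 fragments at a fold of 47.8. The one after it (chr19:23852757-23857382), 4626 bp wide, had the highest pileup of the arm, 153, and a fold of 56.4. The next (chr19:23947624-23948754) reached 132 and 53.0, and the last (chr19:24153730-24156388), which was also the member nearest the centromere, 143 and 52.7. Between them lay peaks of the low set, for example one with a pileup of 11 (chr19:23830187-23830581) and one with 22 (chr19:23975698-23975907). The background at the 5 summits was 1.51 to 2.202, within the range seen in 19p13.

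Tall wide peaks made up a larger share of the few peaks of 19p12 than of those of 19p13. With a pileup of at least 100 and a width of at least 1000 bp, marks set after the values were seen, 19p12 had 5 of 27 peaks (18.5%, 6.30 to 38.1%). In 19p13 there were 11 of 506 (2.17%, 1.09 to 3.86%), so most of the 16 on the arm lay there. Of these 11, 7 were in 19p13.3, a share of 3.43% (1.39 to 6.94%) of its 204 peaks. On 19q the share was 2.57% (1.64 to 3.83%). The share over all autosomal peaks was 0.907%. It was 5.03% (2.197 to 9.67%) in the other variable bands and 10.4% (6.55 to 15.5%) in pericentromeric bands, and both intervals overlapped that of 19p12. A pileup of at least 100, at any width, was reached by 21 peaks of 19p or 3.94% (2.46 to 5.96%), against 2.54% of autosomal peaks. Of these, 9 were in 19p13.3, 5 in 19p12, 3 in 19p13.2, 2 each in 19p13.12 and 19p13.11, and 0 of 37 in 19p13.13 (exact interval up to 9.49%).

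Before 23 Mb, 19p12 had 16 peaks in 3.20 Mb, or 5.00 per Mb (2.86 to 8.12), and none had a pileup above 27. Past 23 Mb it had 11 in 1.42 Mb, or 7.73 per Mb (3.86 to 13.8), with pileups from 11 to 153. The intervals of the sections overlapped. The limit at 23 Mb was chosen after the values were seen. The median background was 0.755 in the distal and 1.51 in the proximal section.

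**Figure D5:**
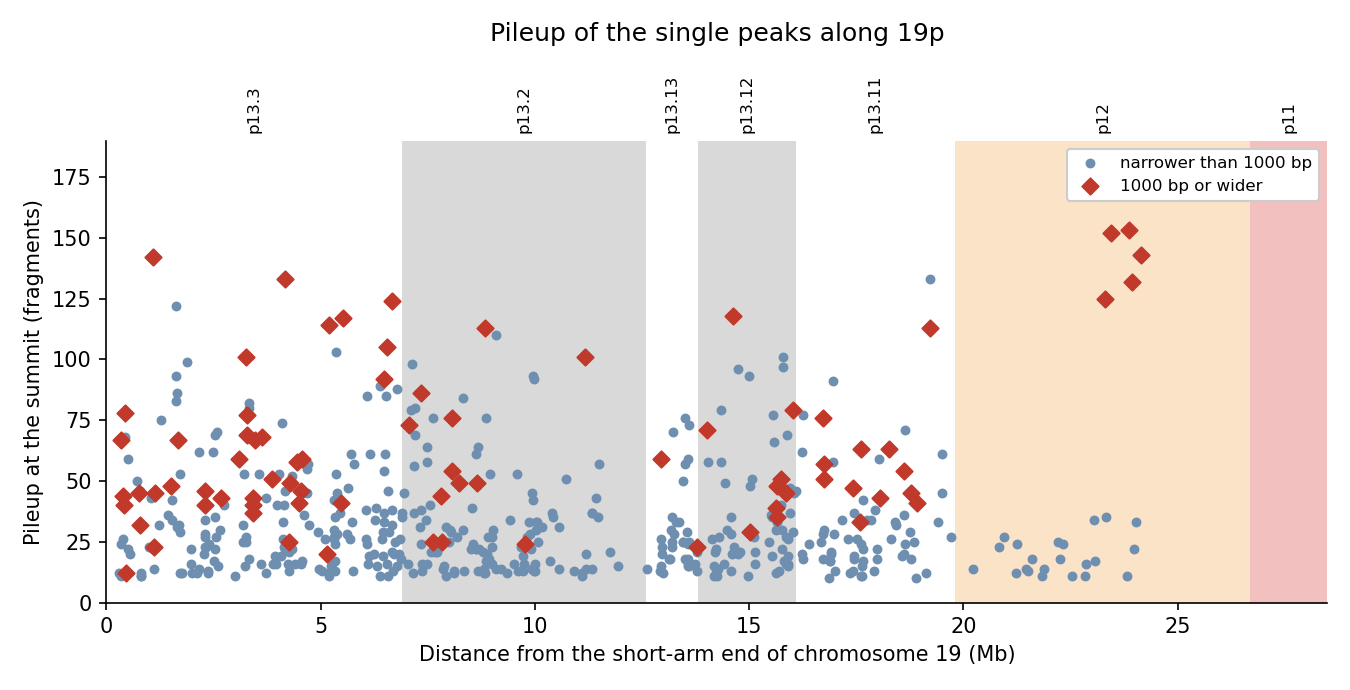
Pileup at the summit in fragments (y axis) of all 533 peaks by distance from the short-arm end of chromosome 19 in Mb (x axis), with bands shaded; diamonds are peaks of 1000 bp or more. Wide peaks occur along 19p13, mostly below 100 fragments, and the 5 in 19p12 stand at 125 to 153 above a floor of peaks at 35 or less.

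Outside 19p12, the strongest peaks lay in 19p13.3. The highest fold enrichment of the arm, 59.4, was at chr19:1628945-1629897, with a pileup of 122, and it ranked 30th among autosomal peaks. Close to it in value was a peak at chr19:1095435-1096456, where the fold was 59.2 and the pileup, 142 fragments, was the highest outside 19p12. Next in this band were chr19:6660853-6661889, with a fold of 56.9 and a pileup of 124, and chr19:6380178-6380871, with a fold of 55.2 at a pileup of only 89 and a background of 0.629. A pileup of 133 was reached at chr19:4178358-4180345, 1988 bp wide, with a fold of 41.9 at a background of 2.202, and also by 1 peak of 19p13.11. The widest peak of 19p13 (chr19:344371-347192) measured 2822 bp and was of moderate height, with a pileup of 67. It was followed by a peak of 2626 bp in the trough of 19p13.2 (chr19:11180761-11183386), with a pileup of 101.

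The peak of highest fold enrichment was also taken from each of the other bands. In 19p13.12 it reached 54.9 (chr19:15784084-15784787, pileup 97, background 0.786). In 19p13.2 it was 43.8 (chr19:7142742-7143524, pileup 98), in 19p13.11 41.8 (chr19:19210729-19212185, pileup 113) and in 19p13.13 37.2 (chr19:13513343-13513994, pileup 76). Their ranks by fold among 22606 autosomal peaks were 74, 367, 485 and 803, and the best of a set of peaks ranks high by construction.

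Neighbouring peaks on 19p stood closer together than even random scatter at the arm's density would place them. The median distance between summits was 21084.5 bp, against 63909.5 bp on the other arms and 16218 bp on 19q. An even random scatter at the density of 19p would give 31735 bp. For the other arms it would give 83437 bp at their joint density, which takes no account of differences in density between them. The observed median was 0.664 times the value for random scatter on 19p, 0.667 times on 19q, 0.620 times on 22q and 0.775 times on 17p. So 19p lay within the range of the arms most like it. On the other arms together it was 0.766 times, at the joint density. Within 19p13 the median was 18962 bp, or 0.700 times the value for random scatter, and in 19p12 108966.5 bp, or 0.918 times.

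Distances of 10 kb or less made up 32.9% on 19p (175 of 532), where random scatter would give 19.6%. On the other arms it was 14.01% against 7.97%, and on 19q 37.8% against 24.8%. The observed share was thus 1.68 times the random one on 19p and 1.54 times in 19p13 alone. It was 1.52 times on 19q, 1.55 times on 17p and 1.68 times on 22q. The 1.76 times of the other arms together rests on their joint density, so it cannot be ranked against the values of single arms. All 175 were in 19p13. In 19p12 there were 0 of 26, where random scatter would give 1.47.

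When peaks separated by at most 10 kb were taken as a group, 55.9% of the members (298) belonged to one of 114 groups, against 26.4% of autosomal peaks. The share was 59.7% on 19q, 27.6% on 17p and 25.7% on the other arms. A denser arm has more peaks within a fixed distance, and no correction for density was made to these shares. The largest was in 19p13.3 (chr19:5306664-5339555), with 8 peaks in 32892 bp. Their pileups were 13 to 42, and the highest fold was 19.04. The next had 7 peaks in 27854 bp (chr19:2286198-2314051, 19p13.3) with pileups of 20 to 46. Another had 6 in 31844 bp (chr19:16723066-16754909, 19p13.11), with pileups of 18 to 76. None of these groups held one of the 5 tall peaks of 19p12, which had no neighbour within 10 kb.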

How the data were processed

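The deposited data are 1 joint peak list, made by the authors from 3 samples on hg18. Per the file headers it gives position, width, summit, the pileup signal at the summit, fold enrichment, p and q. The submitters' processing notes name BWA, SAMtools and bedtools. For the peak caller, its control, the pooling and the depth of each sample, no source used here gives details. Decimal points lost from fold enrichment and p were restored from the Poisson relation between pileup, fold and p, which was met within 0.01 on the −log10 scale for 23640 of 23641 peaks and for all on chromosome 19. Tested on 2000 simulated rows, it returned 100% of fold and p. For q, which does not enter that relation, the largest placement below −log10 p was taken, and this was not tested. Background is (pileup + 1) / fold − 1.

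Peaks were placed by summit into bands (circlize 0.4.16) and divided by sequenced contig length (IRanges 2.36.0, R 4.3.3). Windows needed at least 50% sequence. Ratios of densities have exact conditional intervals, and no p-value was computed. By rule, the named items were the 5 highest in fold, pileup and width, the top fold of each band, the 3 windows with most and with fewest peaks, and the 3 longest peak-free stretches and largest groups. Other peaks of 19p12 were named after their values were seen. Members, bands and comparisons were chosen with earlier results of these data known. Python 3.11.15, numpy 2.4.6, pandas 2.3.3, scipy 1.17.1 and matplotlib 3.10.9 were used. The genome sequence of hg18 was not used here.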

Additional observations from a re-analysis of the deposited data

How the results depend on the processing

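Over 76 alternatives, none turned a direction and 57 stayed within the main interval (counts of windows: within 1.5 times). A direction was defined for the ratios only, not for the 6 alternatives of the density or the 7 of the window count. Placing peaks by their midpoint changed none of the values. The number of peaks per Mb on 19p was by construction lower per Mb of full length (19.96), with peaks of at least the median fold enrichment (12.99) or −log10 q (12.7) and without peaks of 1 kb or more (18.6). The ratio of 19p to the other arms was 3.29 by covered bases, 3.09 without pericentromeric, variable and stalk bands, 3.14 and 3.06 with the stricter fold and q, and 2.37 without peaks of 1 kb or more. That to 17p was 2.53 by covered bases and 2.78 and 2.80 with the stricter fold and q, and that to 22q 1.83 by covered bases. The placement of the decimal point of q was not tested. With the stricter fold and q the ratios of median fold were 1.04 and 1.07 and those of median pileup 1.025 and 1.02; the cause was not tested. Without peaks of 1 kb or more the ratio of median widths was 1.13. In windows of 500 kb, 35 of 49 on 19p were at or above 2 times the median of autosomal windows of that size. The share over all autosomal windows of 500 kb was not computed, so no excess can be read from this count. The ratio of 19p13 to 19p12 ranged from 3.29 (covered bases) to 6.53 (per Mb of full length). The omissions of peaks of 1 kb or more and of pileups of at least 100 were chosen after seeing the data. Leaving out a replicate was not possible with 1 joint list.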
